A study of Homo sapiens with 4 samples.

Results

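The comparison described here sets HEK293T cells given an expression vector for SF3B1 with the substitution R625H against HEK293T cells given the vector for wild-type SF3B1 (WT). HEK293T is a human embryonic kidney line. The members are the 2 libraries that the labels give these vectors, of 4 in the series; the other two carry SF3B1-K666T and SF3B1-K700E and are used only to show where R625H differs. By the labels, the R625H and K666T transfections used 1000 ng of plasmid and the K700E transfection 2000 ng; the sources used here do not state the WT amount. Each vector has 1 library, so no difference below has a replicate check. Tests on reads compare libraries, not conditions, and every interval covers counting error only. The cells keep their own SF3B1 gene, and the read counts do not separate vector from endogenous transcripts.

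SF3B1 is the largest subunit of SF3b, the part of the U2 snRNP that holds the branch point adenosine of an intron during assembly of the spliceosome. The branch point lies a short way upstream of the acceptor, the AG at which the intron ends. Cancer-associated substitutions in the HEAT repeats of SF3B1 are known for the use of a cryptic acceptor a short distance upstream of the usual one, so that a few intron bases stay in the mRNA. Substitutions at R625 are known from uveal and mucosal melanoma.

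Reads assigned to genes numbered 90939945 in WT and 82254731 in R625H, and uniquely mapped junction reads 72034388 and 66015665. Unmapped pairs made up 8.84% in WT and 16.46% in R625H. A unique read was seen on 435373 junctions in WT and 480613 in R625H, although R625H had fewer junction reads. The part these differences play in the results below was not tested. SF3B1 itself stood at 505.95 CPM (reads per 1000000 gene reads) in WT and 517.33 in R625H, a log2 ratio of 0.03 with a 95% interval of 0.01 to 0.05; this total does not check the substitution. Genes that HEK293T cells express, such as NEFM at 427.84 and 329.1 CPM and IGF2BP1 at 323.79 and 321.49, were present in both libraries. UMOD and AQP2 of mature kidney tubule were at 0 reads in both, and of the melanocyte genes TYR, MLANA and SOX10 had at most 2 reads in either. Other melanocyte genes were read: MITF had 1392 and 1283 reads, PMEL 655 and 526, and DCT 58 and 60.

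Acceptor choice was measured on pairs of acceptors 10 to 30 nt apart that share a donor, as the upstream share: the percent of the pair's reads on the upstream acceptor. The downstream acceptor had to be annotated. To show what the upstream choice adds to an mRNA, the reference bases at pairs with both acceptors annotated are printed from GENCODE 29 transcripts. Capitals mark the bases between the acceptors, which are kept when the upstream acceptor is used, and lower case the exon that follows. The first set are pairs whose upstream share rose in R625H.
LYPLAL1: TATGTTTTTGTTTTTAGgaggattctctat
ENOSF1: AGTCTCTTTTTGCAGatgatggatgccaac
MFSD9: CATTTATTTTGTTTTAGgatttgtttggtg
BRD9: TTTCTTTCAGggcctgccatctatcacgtg
TGFBR1: GCCCTTTTTCAGtaaagtcatcacctggcc
TMEM14C: CTTGTTTTCTGCAGgtgcaggcctggggta
DLST: CCTTTGATTGTCTTTTCAGctgttggagac
The next 3 are pairs whose upstream share fell, shown because they run against the main direction.
MTERF2: TTTATTGCAGggaactgacaagatcacatt
ZNF561: GGTTTTTTTCCAGggaaccaatctgccctt
CELF1: CTTTATTTGCAGctccttcagcagactgcc

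The R625H library used upstream acceptors more often than WT at many introns and less often at few. Of 10155 pairs tested, the upstream share rose at 195 (1.92%), in 186 genes, and fell at 26 (0.256%). A call needed an adjusted p under 0.05 (two-sided Fisher's exact test, Benjamini-Hochberg) and a change of 10 percentage points or more. The median rise was 18.64 points. In all, 55 rises reached 25 points, 17 reached 50 points, and at 30 the upstream acceptor took over 50% of the R625H reads. GEN1, CDK20, LYPLAL1, GCC2 and PFDN5 reached 50 points with an upstream read in WT. Others past 50 points had none there, among them HSPA8 (0 to 83.11%), RPL18 (0 to 71.71%) and EIF4G2 (0 to 70%). These are abundant transcripts read on few WT reads at the pair, so their values are uncertain. Over all tested pairs the mean change was 1.11 points and the median 0.28, and at an unadjusted p under 0.05 there were 1390 pairs up and 160 down. Both libraries had reads on both acceptors at 3799 of the pairs, of which 119 rose and 12 fell.

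**Figure D1:**
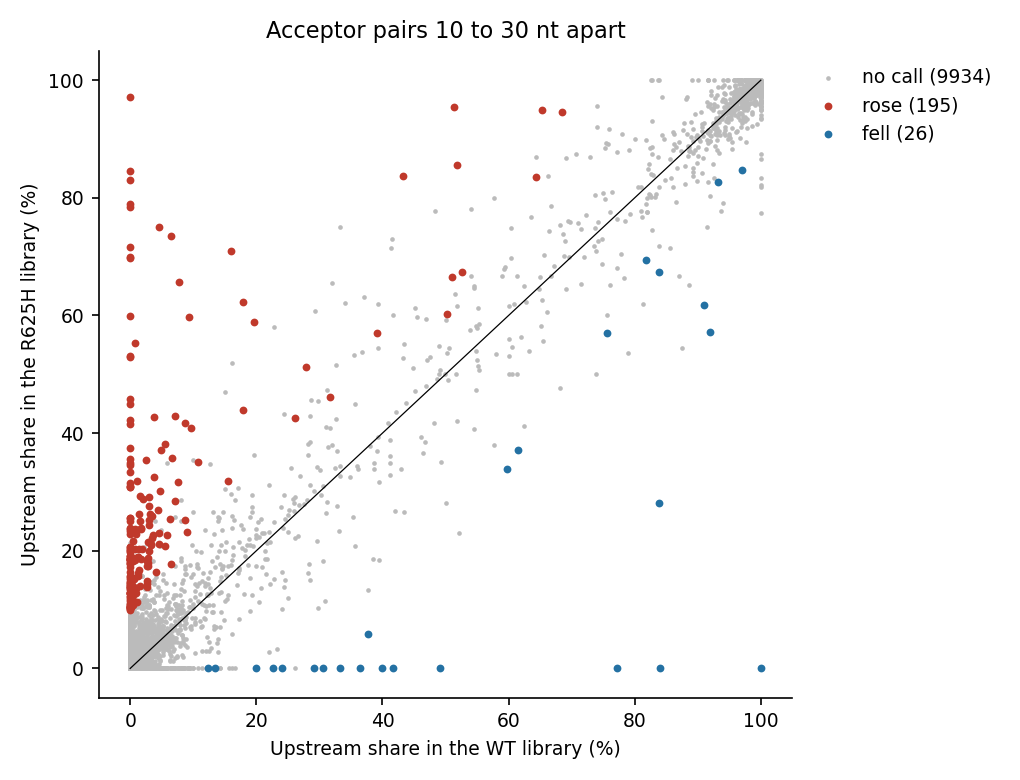
Upstream share of each of 10155 acceptor pairs 10 to 30 nt apart in the WT library (horizontal axis, percent) and the R625H library (vertical axis, percent); each point is a pair and the line marks equal shares. The 195 rises in red lie mostly at WT shares near 0, and the 26 falls in blue include 15 with no upstream read in R625H.

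Rises were rarer among pairs of other spacing and among alternative donors, while falls at acceptor pairs of other spacing were not. Acceptor pairs 3 to 9 nt apart rose at 14 of 2340 (0.598%) and fell at 12 (0.513%). Pairs 31 to 100 nt apart rose at 47 of 9699 (0.485%) and fell at 26 (0.268%). The share of the downstream donor rose at 3 of 2767 donor pairs 3 to 9 nt apart (0.108%) and fell at 1 (0.0361%). At 10 to 30 nt, 7 of 3013 donor pairs rose (0.232%) and 6 fell (0.199%), and at 31 to 100 nt, 5 of 5321 rose (0.094%) and 9 fell (0.169%). The 5 control classes together gave 76 rises and 54 falls in 23140 pairs.

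Within the 10 to 30 nt range the rises were denser at short distances. At 10 to 14 nt, 40 of 920 pairs rose (4.35%); at 15 to 19 nt, 84 of 3115 (2.7%); at 20 to 24 nt, 51 of 3418 (1.49%); and at 25 to 30 nt, 20 of 2702 (0.74%). The median distance was 18 nt for the rises, with quartiles of 15 and 21 nt, and 21 nt for all tested pairs. Most risen upstream acceptors were not annotated: 149 of 195, against 8500 of the 10155 tested. Rises were 43 of 1138 pairs (3.78%) in front of UTR or non-coding exons and 152 of 9017 (1.69%) in front of coding exons. In coding exons, 66 of the 3715 pairs with a distance that is a multiple of 3 rose (1.78%), as did 86 of the 5302 with another distance (1.62%). The upstream acceptor had no WT read in 85 of the 195 and in 4436 of the 10155 tested, where the percent that rose was also 1.92%.

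**Figure D2:**
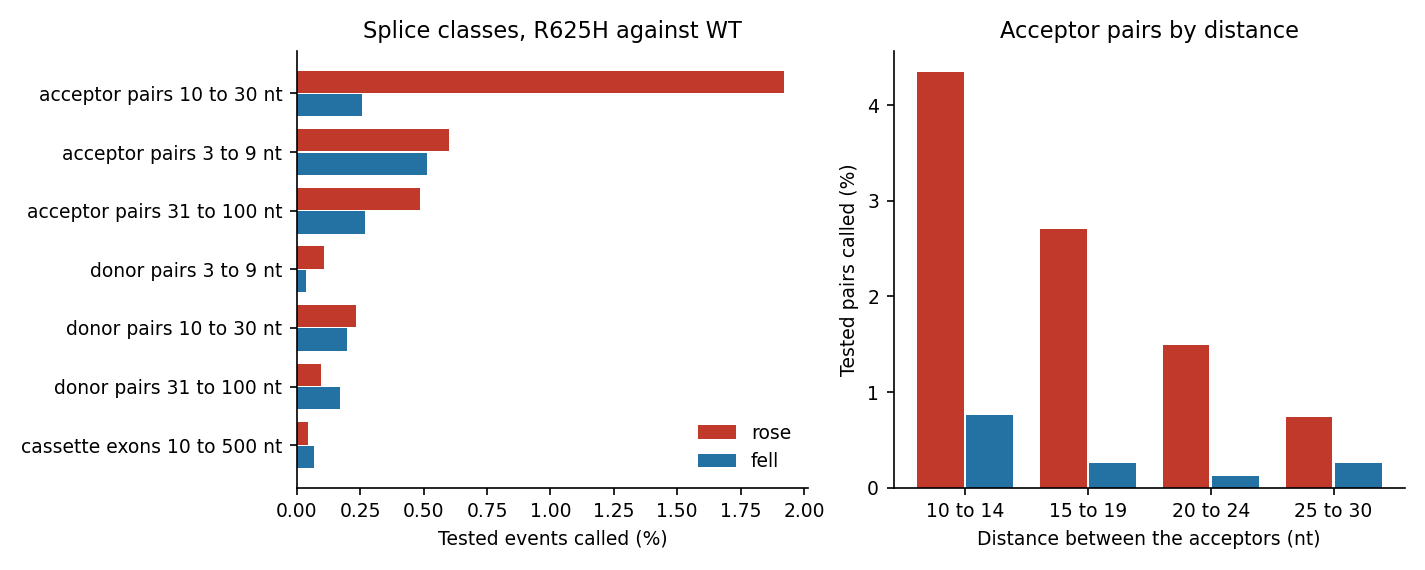
Left, percent of tested events that rose (red) or fell (blue) in R625H against WT, for each splice class; right, the same percent for acceptor pairs 10 to 30 nt apart, by distance in nt. The bar for rises is longest for acceptor pairs 10 to 30 nt apart, at 1.92%, and among those at 10 to 14 nt, at 4.35%.

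Base composition was read where both acceptors are annotated. Of 1525 such pairs, 99.8% had AG as the last bases before the downstream acceptor. In the 39 that rose, T made up a median of 53.3% of the bases between the acceptors, excluding the final AG, against 37.5% in the 1476 with no call. Pyrimidines (C or T) made up a median of 77.3% and 71.4%, and A 12.5% in both sets. Among pairs 10 to 23 nt apart, the median T content was 53.3% in 37 rises and 38.9% in 999 pairs with no call. In the 10 pairs that fell, the medians were 33.3% T and 73.2% pyrimidines. T-rich runs are seen in the printed inserts of LYPLAL1 and MFSD9, which rose, and also of ZNF561, which fell. These medians carry no test.

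Genes known from earlier SF3B1 work held part of the rises. Of 32 such genes, 29 had a tested pair, and of their 67 pairs 18 rose, in 17 genes, and 1 fell; 26.87% rose, against 1.92% of all pairs. The median change was 0.64 points over the list's pairs and 0.28 over all. The list was drawn from knowledge of mutant SF3B1, and it was chosen with earlier results of these data known. The 26.87% is therefore no independent check. Most of the list's pairs are other introns of the same genes.

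Metabolic enzymes were among them. In DLST, the succinyltransferase of the oxoglutarate dehydrogenase complex, the acceptor at chr14:75356580 (hg19, last intron base, plus strand) lies 19 nt upstream of the usual one and took 13 of 980 reads (1.33%) in WT and 238 of 908 (26.21%) in R625H, with an adjusted p of 8.15e-63. The intervals, 0.78 to 2.26% and 23.46 to 29.17%, were far apart. In ENOSF1, a mitochondrial enolase superfamily member, the share was 8 of 215 reads (3.72%) in WT and 80 of 187 (42.78%) in R625H at an acceptor 15 nt upstream. DPH5, a methyltransferase of diphthamide synthesis, went from 1 of 698 reads (0.14%) to 67 of 355 (18.87%) at 14 nt. A second DLST pair, 12 nt apart and on few reads, rose from 32 of 49 to 38 of 40; with reads summed over all donors its difference was -1.93 points, and with multi-mapped reads 2.16, so that call rests on 1 donor's reads.

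Signalling and scaffold genes also rose. MAP3K7, the kinase TAK1, went from 27 of 298 reads (9.06%) to 43 of 185 (23.24%) at an acceptor 20 nt upstream. PPP2R5A, a regulatory subunit of the phosphatase PP2A, went from 2 of 268 (0.75%) to 23 of 171 (13.45%). ORAI2, a calcium channel subunit, went from 3 of 120 (2.5%) to 39 of 110 (35.45%) in front of a UTR or non-coding exon. TTI1, a cofactor of PI3K-like kinases, went from 12 of 277 (4.33%) to 64 of 237 (27%). BRD9, the bromodomain subunit of the non-canonical BAF complex, went from 14 of 27 (51.85%) to 89 of 104 (85.58%); the WT interval of 33.99 to 69.26% rests on those 27 reads.

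The pairs with the most reads gave the tightest values. DYNLL1, a dynein light chain, went from 658 of 8659 reads (7.6%, interval 7.06 to 8.18%) to 2409 of 7584 (31.76%, 30.73 to 32.82%). TMEM14C, a mitochondrial protein of heme synthesis, went from 185 of 2784 (6.65%) to 830 of 2322 (35.75%), both in front of UTR or non-coding exons. SERBP1, an mRNA-binding protein whose upstream acceptor is already common in WT, went from 6071 of 11534 (52.64%) to 7469 of 11074 (67.45%).

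Other risen members of the list were GCC2, a Golgi coiled-coil protein (0.78 to 55.35%), GAS8 of the dynein regulatory complex (3.85 to 32.48%), RWDD4 (2.94 to 29.11%), HINT2 (2.97 to 19.94%), ZDHHC16, a palmitoyltransferase (3.27 to 21.12%), and SEPTIN6, a septin (1.68 to 18.59%). ZNF561, a zinc finger protein, was the exception: its upstream share fell from 92 of 100 reads (92%) to 72 of 126 (57.14%). A second ZNF561 pair, 10 nt apart, had 12 of 41 reads (29.27%) in WT and 17 of 28 (60.71%) in R625H, with no call (Fisher's exact test, adjusted p of 0.133). The 11 list genes with a tested pair and no call include ANKHD1, AP1G1, ARMC9, COASY, CRNDE, DVL2, PPOX, RPL31 and UQCC1; the 24 pairs of the 11 genes differed by between -12.18 and 3.3 points. PPOX, an enzyme of heme synthesis, had 4 of 88 reads (4.55%) in WT and 4 of 51 (7.84%) in R625H at an acceptor 19 nt upstream.

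**Figure D3:**
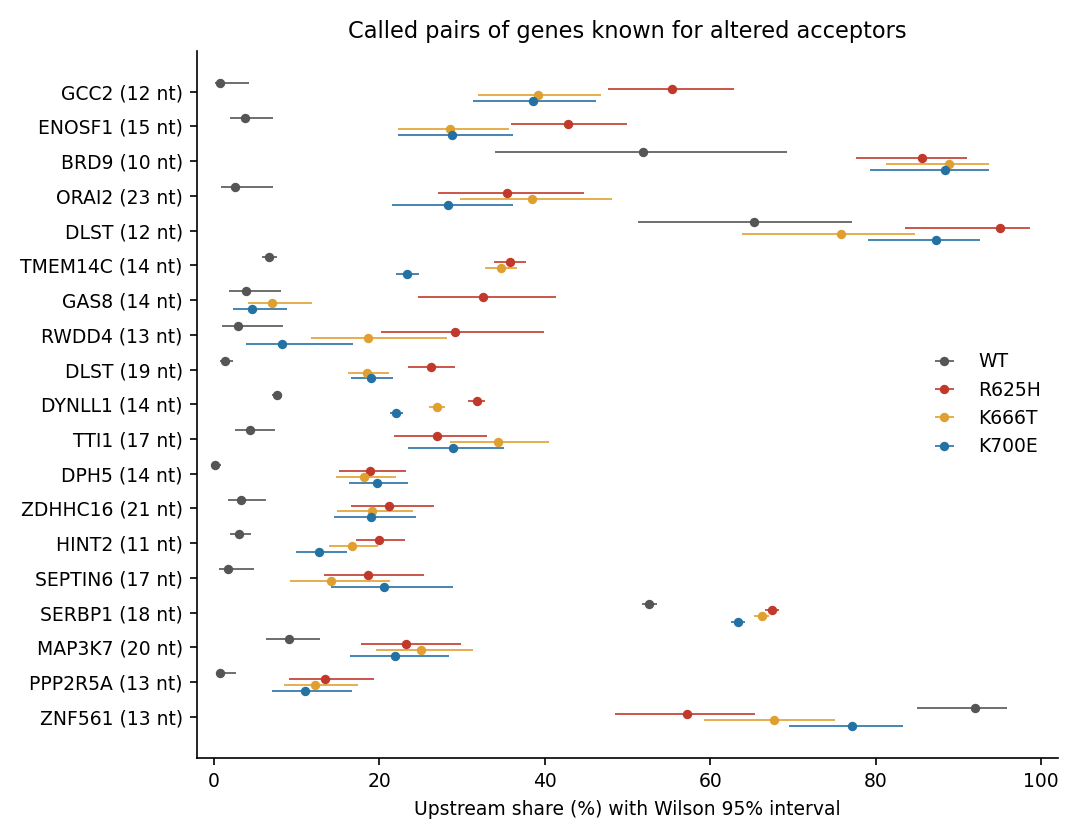
Upstream share (percent, horizontal axis) of the 19 called pairs of genes known for altered acceptors, with Wilson 95% intervals, in the libraries WT (grey), R625H (red), K666T (yellow) and K700E (blue); the distance between the acceptors stands beside each gene. R625H lies above WT in 18 pairs and below it in ZNF561.

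The largest rises with both acceptors read in both libraries reached further genes. GEN1, a Holliday junction resolvase, went from 1 of 22 reads to 18 of 24, and CDK20, a cilia-linked kinase, from 2 of 31 to 36 of 49. LYPLAL1, a lysophospholipase-like protein, went from 7 of 44 (15.91%) to 61 of 86 (70.93%), at 1 donor; with reads summed over all donors, a setting chosen after seeing the data, its difference was 12.41 points in place of 55.02. CCDC66, a centrosome and cilium protein, went from 19 of 106 (17.92%) to 91 of 146 (62.33%). TGFBR1, a TGF-beta receptor kinase, went from 9 of 103 (8.74%) to 51 of 122 (41.8%). In BCL2L1, which encodes the survival factor BCL-XL, 12 of 61 reads (19.67%) became 30 of 51 (58.82%) in front of a UTR or non-coding exon. MFSD9, a predicted transporter, went from 7.04 to 42.86%, and AGBL3, a carboxypeptidase acting on tubulin, from 5.45 to 38.1%.

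Calls in PFDN5 (9.38 to 59.68%), SDCBP (51.35 to 95.45%) and RBM42 (43.24 to 83.78%) rest on the reads of 1 donor. With reads summed over all donors their differences were 1.01, 0.53 and 0.98 points, none of them called. With multi-mapped reads added, the difference was -0.41 points in SDCBP and 5.44 in RBM42.

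Among the 8 largest falls, MTERF2, a mitochondrial transcription termination factor family member, came first: 186 of 222 reads (83.78%) in WT and 91 of 324 (28.09%) in R625H at an acceptor 10 nt upstream, with an adjusted p of 9.1e-37. CELF1, a regulator of splicing and mRNA decay, went from 338 of 447 (75.62%) to 229 of 402 (56.97%). TMEM127, a lysosomal membrane protein, went from 61.48 to 37.19%, TSACC from 59.78 to 33.9%, GLI4 from 83.91 to 67.38% and MAGOHB, an exon junction complex subunit, from 37.78 to 5.88%. TRIM28, a corepressor, went from 183 of 201 reads to 21 of 34; adding multi-mapped reads turned its direction, to 2.38 points. TSACC with reads summed over donors, at -21.99 points, and MAGOHB with multi-mapped reads, at -13.89, were no longer called.

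Cassette exons were called in both directions. Of 64663 exons of 10 to 500 nt, inclusion rose at 28 (0.0433%) and fell at 43 (0.0665%). At an unadjusted p under 0.05, 1094 exons were up and 3496 down, and the mean change was -0.37 points. Coding exons with a length that is not a multiple of 3 gave 5 rises and 24 falls in 29680, and those with a multiple of 3 gave 6 and 6 in 20097. COASY, the enzyme of the last steps of coenzyme A synthesis, had an exon of 132 nt whose inclusion rose from 50 of 263 reads (19.01%) to 179 of 293 (61.09%). An exon of 75 nt in ABCC5, a drug efflux transporter, rose from 9 to 38.2%. In DCAF16, a ubiquitin ligase receptor, an exon of 119 nt fell from 89.12 to 54.81%, and in PIGC, of GPI anchor synthesis, an exon of 98 nt from 95.35 to 48%. ARHGAP33, a GTPase-activating protein, fell from 38 of 38 to 26 of 37, and SLC4A11, a membrane transporter, from 61 of 65 to 50 of 73. The exons of RHNO1 (25 to 68.97%) and GAS8 (7.41 to 31.17%) use the upstream acceptor of a tested pair, so they are not separate events. The COASY exon uses the downstream acceptor of a tested pair that had no call. Exons in RPL7A, RPLP0, RPS3, RPL8, RPL4, HSPA9, HNRNPU and PA2G4 were also called, but these abundant genes have near-identical copies, and their values are uncertain.

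Genes with a rise stood slightly lower in R625H. A gene's level is given as the log2 ratio of its CPM in R625H to WT with a prior count of 10. Among the 5225 measured genes with a tested pair the median was -0.01 and 51.5% were below 0, and among the 182 with a rise the median was -0.04 and 59.34% were below 0. Where a rise lay in a coding exon and its distance was not a multiple of 3, the median of 80 genes was -0.09 and 54 (67.5%) were below 0. Where the distance was a multiple of 3, the median of 64 genes was -0.03 and 38 (59.38%) were below 0. For rises in front of UTR or non-coding exons the median of 40 genes was 0.02 and 18 (45%) were below 0. No test separates these groups, and the counts did not grow with the size of the rise: of 19 measured genes with a rise of at least 25 points that breaks the frame, 9 were below 0 (47.37%) and the median was 0. That size split was chosen after the values were seen.

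The 5 genes with a rise and the lowest levels had upstream shares between 10.43 and 18.87% in R625H. CCDC74B had a log2 ratio of -0.75 and an upstream share of 2.78% in WT and 17.95% in R625H. LIG3, a DNA ligase of base excision repair, had -0.72, with 5992 reads in WT and 3286 in R625H and a share of 0 and 14.67%. NSMCE4A, of the SMC5/6 complex, DPH5 and PPP2R5A each had -0.63. The level of LIG3 was -0.43 in K666T and -0.3 in K700E against the same WT library.

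**Figure D4:**
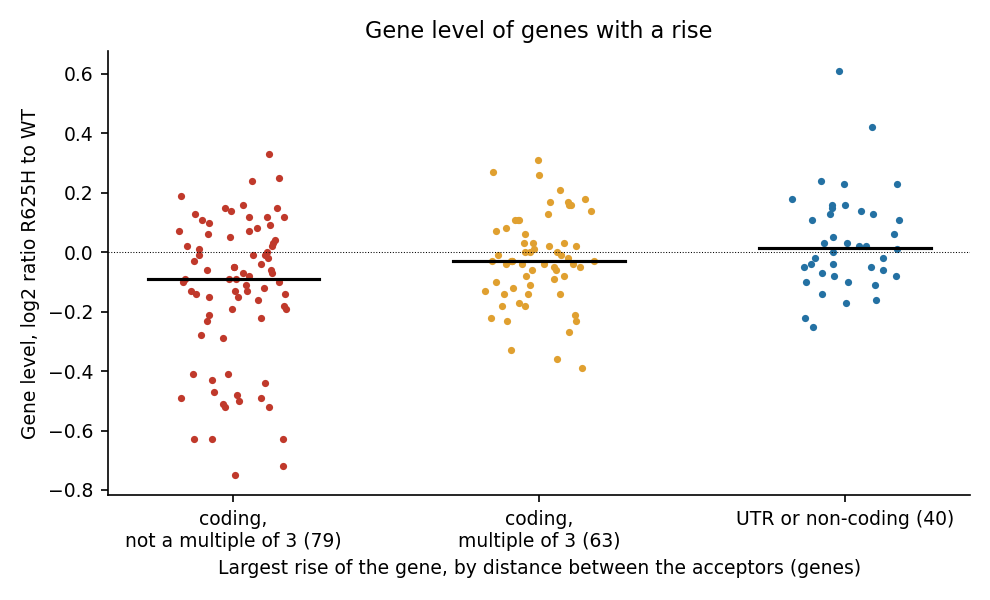
Log2 ratio of gene level, R625H to WT (vertical axis), for the 182 measured genes with a rise. Each gene is placed once, by the first of its rises in order of position. That rise need not be its largest, although the axis title says so. The groups are coding exon with a distance that is not a multiple of 3, coding exon with a multiple of 3, and UTR or non-coding exon. Bars are medians. The first group reaches down to -0.75, and the points of all 3 groups overlap.

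Against the other mutants, R625H was more often above than below. K666T had the same plasmid amount: tested directly, the upstream share was higher in R625H at 44 of 11037 pairs (0.399%) and lower at 21 (0.19%). Against K700E, which had more plasmid, it was higher at 62 of 11106 (0.558%) and lower at 24 (0.216%). On pairs with both acceptors read in both libraries the counts were 25 and 4 against K666T and 47 and 5 against K700E. Over the 195 rises the median upstream share was 20.9% in R625H; WT had 0.46%, K666T 11.08% and K700E 12.11%. Those pairs were chosen for a high share in R625H, so this order is partly set by the choice. R625H was higher than K666T at 33 of 191 and than K700E at 48 of 193, and lower at 0 of either. TGFBR1, at 41.8% in R625H, stood at 33.7% in K666T and 16.47% in K700E.

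Gene expression differed mainly in 1 direction. Of 14587 genes with at least 1 CPM in either library, 88 were at least 2-fold higher in R625H (0.603%) and 4 at least 2-fold lower (0.0274%). With 1 library a side these are counts past a fold, with no test. Of the 88, 43 had under 1 CPM in WT and passed the filter only through R625H; among the 14357 genes with at least 1 CPM in WT, 45 were at least 2-fold higher (0.313%), a count chosen after seeing the data. At 1.5-fold the counts were 226 and 62, and the ratios of all genes had an SD of 0.244 on the log2 scale. Over the 14587 genes the median ratio was -0.02, and 6615 stood above 0. Of the 88, 84 had a symbol, and 31 of these belong to the lists of interferon-stimulated genes or of interferons and chemokines. These lists have 41 and 4 measured members among the 14587 genes. Of the members counted, 10 interferon-stimulated genes and 2 of the other list passed the filter only through R625H, so that they had to be higher there.

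Interferons are secreted after cells sense foreign or misplaced nucleic acid, and they switch on a shared set of antiviral genes through JAK-STAT signalling. Of 31 interferon-stimulated genes with at least 1 CPM in WT, 19 were at least 2-fold higher (61.3%), against 0.313% of all such genes, and their median log2 ratio was 1.36, against -0.02. A further 10, among them OAS1, OAS2 and MX2, passed the filter through R625H alone, so that they had to be higher there. With them the count is 29 of 41 and the median 1.52. The interferon list was chosen with earlier results of these data known, so its counts are no independent check. RSAD2, the antiviral enzyme viperin, had 1.188 CPM in WT and 16.498 in R625H, a log2 ratio of 3.67 with an interval of 3.4 to 3.94. IFIT3, IFIT2 and IFIT1, which bind foreign RNA or each other, had ratios of 3.55, 3.37 and 2.78, IFIT1 at 29.723 CPM in WT and 204.256 in R625H. The oligoadenylate synthetases OAS1, OAS2, OAS3 and OASL had 3.51, 3.36, 2.6 and 2.84. IFI44 had 3.31, ISG15, a ubiquitin-like modifier, 2.54 and MX2, a GTPase, 2.58, with 7 reads in WT and 85 in R625H.

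Sensors and signalling genes of the same system were higher in part. Of 13 measured nucleic acid sensors and adaptors 4 were at least 2-fold higher, with a median of 0.28, and 2 of these had under 1 CPM in WT. Of 11 interferon receptors and signalling genes 1 was, with a median of 0.07. RIGI, a sensor of RNA ends, had a ratio of 2.25, IFIH1, the sensor MDA5, 1.43, DHX58 1.11, and the transcription factor IRF7 1.6. STAT2, a transcription factor of interferon signalling, had 0.31. Of interferons and chemokines, CXCL10 had 2.58 and CXCL2 1.14, both under 1 CPM in WT. IFNB1, which encodes interferon beta, was below the filter with 8 reads in WT and 67 in R625H, and the lambda interferons IFNL1, IFNL2 and IFNL3 had at most 4 reads in either library. The MHC class I list had a median of 0.23, with 14 of 15 above 0, against 6615 of all 14587 genes. At 2-fold there were 0, while PSMB9 had 0.68 and B2M 0.33.

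The interferon list was also high in the other mutants against the same WT library, at a median of 1.22 in K666T and 3.23 in K700E. RSAD2 had ratios of 3.67 in R625H, 3.04 in K666T and 7.15 in K700E. All 3 ratios share WT, so its level enters each of them. The part that transfection, vector amount or the single WT library plays in these ratios cannot be told apart from the vectors.

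Promoters of the genes that were higher often held the letters of an interferon-stimulated response element. The letters searched were GAAANNGAAA on both strands, in RefSeq promoters (GRCh38.p14) from 250 bases before to 50 after the start. They occur in 3.6% of 27305 promoters and in 2.5% of those of 10909 tested genes. Among the genes at least 2-fold higher in R625H, 19 of 50 promoters held them (38%), of those 1.5 to 2-fold higher 10 of 79 (12.7%), and of those at least 1.5-fold lower 2 of 27 (7.4%). The 50 include genes that passed the filter only through R625H and members of the interferon list. Over all tested members of that list, 2-fold higher or not, 18 of 32 promoters held the letters. Windows of 30 bases are shown for 4 genes, with the matching letters in capitals, on the strand that holds them.
IFIT3: gaggaaactgGAAAGTGAAActaatttaaa
OAS3: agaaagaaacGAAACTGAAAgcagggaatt
CXCL10: tcatgttttgGAAAGTGAAAcctaattcac
IFIH1: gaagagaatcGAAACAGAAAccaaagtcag
A match describes the letters and is not a measured site.

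NF-kB targets and early response genes were higher by less. The NF-kB target list had a median of 0.29 over 17 genes, with 2 at 2-fold: RELB, an NF-kB subunit, at 1.33 and CXCL2. TNFAIP3, the feedback inhibitor A20, had 0.96 and NFKBIA, the inhibitor I-kappa-B-alpha, 0.79; in K666T the same genes had 0.53 and 0.29. Of 29 immediate early genes 27 were above 0, against 6615 of all 14587 genes, and their median was 0.4. EGR1 had 1.18, FOS 1.1, FOSL1 0.89 and ATF3 0.75. The integrated stress response list had a median of 0.13, with FGF21 at 1.39, from under 1 CPM in WT, and PPP1R15A, a regulator of eIF2 phosphorylation, at 1.05. Of the heat shock list, HSPA6 had 1.31 and BAG3 0.38, and the list median was 0.04. The p53 target list had a median of 0.22, 20 of 22 above 0 and 0 at 2-fold, led by PLK3 at 0.64 and GADD45A at 0.5. The unfolded protein response list had a median of 0.08, with XBP1 at 0.32, HSPA5 at 0.27 and DNAJC3 at -0.41.

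Metabolic lists lay slightly below 0. Of 22 cholesterol synthesis genes 3 were above 0, against 6615 of all 14587 genes, and their median was -0.1. INSIG1, a sterol sensor, had -0.34 and SQLE -0.23. The hypoxia and glycolysis list had a median of -0.16, with ADM at 0.75 and PDK1 at -0.35. PHGDH, the first enzyme of serine synthesis, had 336.871 CPM in WT and 214.286 in R625H, a ratio of -0.65. In the heme and iron list, with a median of -0.08, HMOX1, which degrades heme, had 0.66 and PPOX -0.32. No gene of these lists reached 2-fold.

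Among splicing factors, the 10 SF3A and SF3B subunits had ratios between -0.1 and 0.17. SUGP1, a partner of SF3B1 in branch point recognition, had 38.894 CPM in WT and 63.157 in R625H, a ratio of 0.7 with an interval of 0.64 to 0.76, and stood at 0.77 in K666T and 0.9 in K700E. U2AF1L4, a U2AF1-like protein, had 0.48 with an interval of 0.15 to 0.81 (0.49 in K666T and 0.59 in K700E). RBM39, a U2AF-like factor, had 0.29, U2AF1 0.13 and ZRSR2 0.17. The 13 measured nonsense-mediated decay factors lay between -0.21 (UPF3B) and 0.17 (SMG8), with a median of 0.03. The cell cycle, cytosolic ribosomal protein and mitochondrially encoded lists had medians of 0, 0 and 0.08. The list of genes known for altered acceptors had a median level of -0.05.

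**Figure D5:**
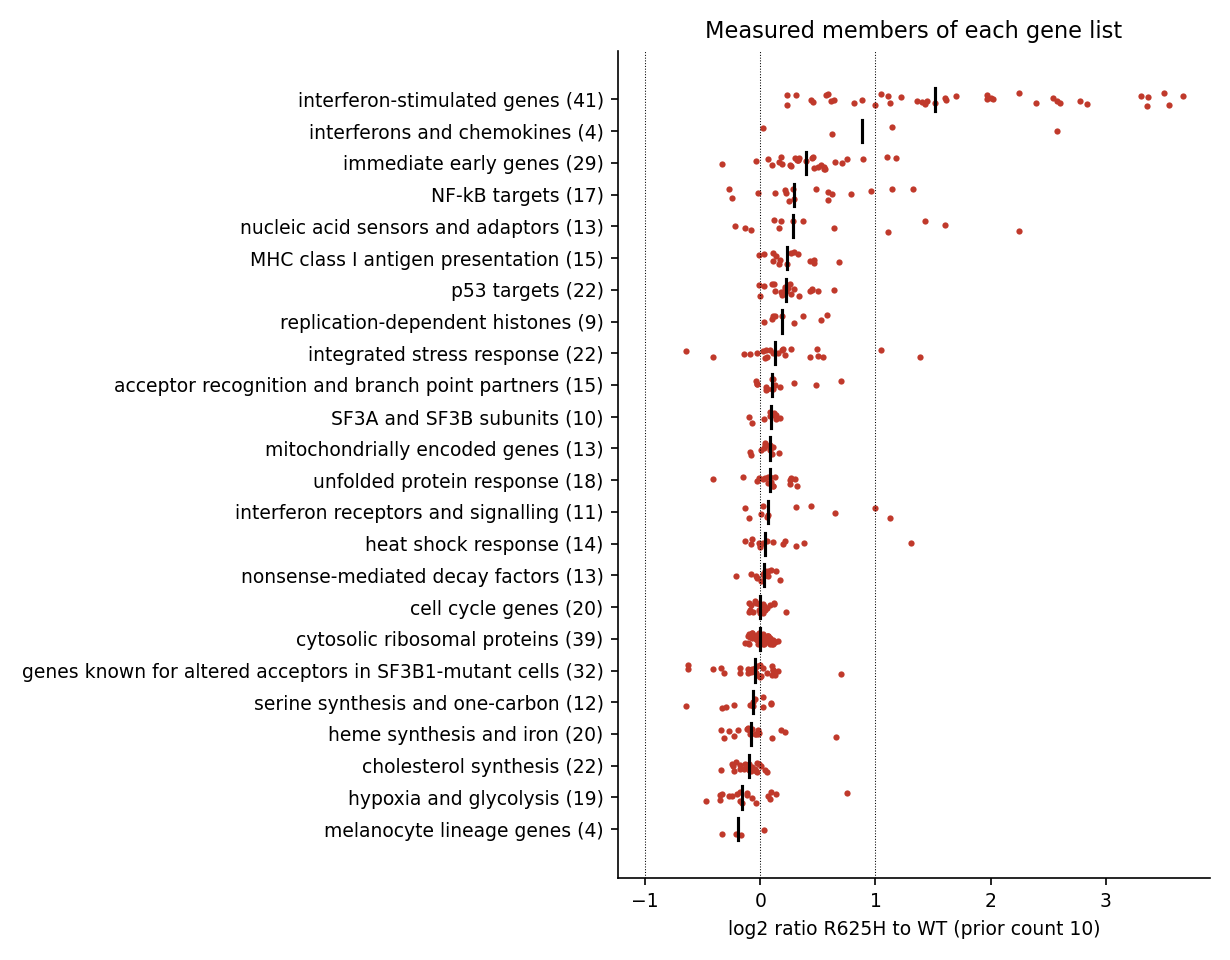
Log2 ratio of R625H to WT (horizontal axis) for each measured member of the 24 gene lists, with list medians as bars and the number measured in parentheses; dotted lines mark 0 and 2-fold. The interferon-stimulated list stands highest, with a median of 1.52, and melanocyte lineage genes, with 4 measured, lowest.

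Few genes stood apart from K666T, which had the same plasmid amount. Of the 14587 genes, 5 were at least 2-fold above K666T (0.0343%) and 2 below (0.0137%). The filter of 1 CPM in WT or R625H did not look at K666T. Genes under 1 CPM in both WT and R625H were left out, however high in K666T. The 5 and the 2 are named here after their values were seen. IL32, a cytokine, had 531 reads in R625H; WT had 154, K666T 169 and K700E 175. TNFRSF9, a costimulatory receptor, had 418 reads in R625H and 155, 179 and 239 in WT, K666T and K700E, and LRG1, a secreted glycoprotein, had 89 against 23, 39 and 37. The other 2 were ANO9 and LINC02945, and the 2 below were the pseudogenes AL365357.1 and RPS2P7. LRG1, ANO9 and LINC02945 had under 1 CPM in WT and passed the filter only through R625H.

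Of the 4 genes at least 2-fold lower, 3 were pseudogenes. AL365357.1 had 731 reads in WT and 9 in R625H, NPM1P6 1210 and 97, and RPS2P7 395 and 108; EEF1A1P6 had a ratio of -0.77. These copies share sequence with abundant genes, so their counts are uncertain. The remaining gene past 2-fold was TEX45, at 117 and 48 reads. MIR210HG, the host of a hypoxia microRNA, had -0.94 and LMF1, a lipase maturation factor, -0.8, with 680 and 349 reads. AL359715.3, AC016739.1, EFEMP2 and SNTG2 had ratios between -0.8 and -0.77. MAGEA2B, a cancer-testis antigen with a near-identical copy, had a ratio of 2.55 in R625H and in K666T. It stood outside the interferon and chemokine lists, unlike the other genes among the 12 highest ratios of genes with a symbol. A gene without a paired symbol had a higher ratio, 3.09, with 39 reads in WT and 372 in R625H. It passed the filter only through R625H. The pairing used here gave it no symbol, so it was not placed inside or outside the lists and is not counted among the 31 list members. Of the 15 names on the list of interferons and chemokines, 14 were paired with a gene. The name left over may belong to a gene that has no symbol here.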

How the data were processed

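Poly(A) RNA of the WT and R625H libraries was compared, 1 library each; K666T and K700E served for context. Per the labels, libraries were stranded and read as 100-bp pairs. The submitters' processing notes name STAR 2.5.3a, HTSeq and the build hg19 (GRCh37). Deposited were raw counts of reads for each gene and each splice junction; the deposited longest overhang of a junction, in nt, was used only in 1 alternative. Reverse-strand gene counts were used. Rows that name no gene (in WT and R625H, 8.84 and 16.46% unmapped, 4.4 and 4.11% multimapping, 5.23 and 5.01% in no feature, 3.43 and 3.15% ambiguous) stayed out of library sizes.

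Annotation was taken by matching intron lengths and order of GENCODE 29 genes to the hg19 junctions: of 18228 protein-coding genes that have 2 or more introns 16017 matched, and 20 genes of any type matched when searched on a wrong chromosome. Events needed 20 reads in each library and an annotated main site. Two-sided Fisher's exact tests were adjusted by Benjamini-Hochberg over all events of a class. Cassette inclusion reads are the rounded mean of both inclusion junctions. Intervals of shares are Wilson 95% intervals. Gene symbols were paired with 52338 of 57820 IDs. Gene ratios use a prior count of 10 and a filter of 1 CPM. A single library a side allows no dispersion estimate, so edgeR 4.0.16 and DESeq2 1.42.0 gave scaling factors only. Python 3.11.15, SciPy 1.17.1 and R 4.3.3 were used, and the calls were tested on simulated data.

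The comparison, its gene lists and tests were chosen with earlier results of these data known. Named were every tested gene of the known list, the 15 largest rises and 8 largest falls with both acceptors read in both libraries, the 8 largest cassette changes each way, the 12 highest and 12 lowest gene ratios, and up to 4 members of each list. Alternatives were read minimums, point thresholds, annotation limits, multi-mapped reads, overhang, adjustment over all classes, scaling, prior and filters. Library pairs for replicates do not exist, so no replicate was left out. Some items that the naming rule selects are not reported here.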

Additional observations from a re-analysis of the deposited data

Results flagged for a closer look

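At 8 pairs the upstream share in R625H passed the Fisher call against WT and also against K666T and against K700E, with the upstream acceptor read in all 4 libraries; these differences between mutants were tested directly. They are part of 23 such pairs, and the same R625H reads enter all 3 tests. RHNO1, a DNA damage checkpoint protein, had 23.45% in R625H; WT had 1.08%, K666T 4.72% and K700E 7.05%. C1D, a nuclear exosome cofactor, had 0.97, 23.38, 4.9 and 7.25% (order here and below: WT, R625H, K666T, K700E), and COPS2, a COP9 signalosome subunit, 0.42, 15.3, 4.55 and 2.34%. GAS8 had 3.85, 32.48, 7.02 and 4.6%. CCNYL1, a cyclin Y-like protein, had 0.94, 22.93, 2.59 and 3.76%, and APPL2, an endosomal adaptor, 2.06, 28.82, 8.82 and 12.03%. The pair named for the readthrough gene CHURC1-FNTB had 1.7, 23.68, 11.31 and 9.17%, and SETD4, a methyltransferase, 5.45, 20.73, 9.01 and 7.14%. The annotated insert of RHNO1 is 20 nt long and that of APPL2 18 nt.
RHNO1: CTTTTGTTTCTTCTCTACAGgcatgggttg
APPL2: ATGTCTGTTTATTTTTAGagcatgacctct
Among the other 15 pairs, HSPA8 went from 0 of 45 reads in WT to 187 of 225 in R625H and EIF4G2 from 0 of 23 to 77 of 110, with 0 in K666T and K700E; both are abundant transcripts read here on few reads.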

How the results depend on the processing

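Rises outnumbered falls among acceptor pairs 10 to 30 nt apart under each alternative run. Rises and falls numbered 410 and 222 with no annotation limit and 119 and 12 with both acceptors read in both libraries. Rises numbered 315 at 5 points and 84 at 20 points, and falls 17 at 50 reads, 61 with multi-mapped reads and 10 among pairs holding at least 10% of the reads of their gene's most-read junction, where 163 rose. This last limit, annotated donors (194 and 25) and reads summed over donors (200 and 25) were chosen after seeing the data. Control classes gave 34 rises and 17 falls with both sites read, and 596 and 667 with no annotation limit. Cassette exons gave 307 and 419 with no annotation limit and 8 and 14 at 20 points. With both acceptors read, 25 pairs were higher and 4 lower in R625H than in K666T, and 5 were lower than in K700E. Genes at 2-fold numbered 193 higher and 23 lower with no filter, and 35 and 2 at 5 CPM. Frame-breaking rises with both acceptors read had 80% of genes below 0. Of the named pairs, reversed were SDCBP (-0.41) and TRIM28 (2.38) with multi-mapped reads and DLST at its 12-nt pair (-1.93) with donors summed; the cause was not tested. With at least 1 CPM in WT, a limit also chosen after seeing the data, 45 of 14357 genes were 2-fold higher. TMM and DESeq2 scaling left 88 and 4 genes at 2-fold. No paired analysis was possible because each group has 1 library. Pairs with few reads limit what can be called.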

Other observations

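Some non-coding and unlisted genes were also higher in R625H; they were chosen after their values were seen. Some small nuclear RNA copies were among them. RNVU1-34 had a log2 ratio of 2.09, and in WT and R625H RNVU1-6 had 31 and 121 reads, RNVU1-14 44 and 127, and RNU5A-1 36 and 128; these last 3 passed the filter of 1 CPM only through R625H, so that they had to be higher there. RNU6-8 had 160 and 148. These RNAs carry no poly(A) tail and have near-identical copies, and their counts in poly(A) libraries are uncertain. ANKRD1, a target of YAP signalling, had 4345 reads in R625H; WT had 1271, K666T 3227 and K700E 2025. ITGAM, an integrin subunit of myeloid cells, had 21 and 85 reads, while PTPRC, the common leukocyte gene, had 8 and 3. ITGAM too passed the filter only through R625H, so that it had to be higher there. IGFBP5, a binding protein for insulin-like growth factors, was lower, with 4239 reads in WT and 2367 in R625H.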
